A study of Mus musculus with 6 samples.

Results

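Vascular endothelial growth factor (VEGF) signalling was followed here through 9 genes, 3 receptors (Flt1, Kdr and Flt4), 2 neuropilins (Nrp1 and Nrp2) and 4 ligands (Vegfa, Vegfb, Vegfc and Pgf), chosen by symbol among the 53465 genes of the deposited table, in which each symbol matched 1 Ensembl gene. Brain endothelial cells of the cortex gave the RNA, and the donors were male tie2-Cre; ai9; rpl22HA/HA mice aged 8 to 12 weeks, after injection of pentylenetetrazol (PTZ), a convulsant that blocks GABA-A receptors, or of phosphate-buffered saline (PBS). Each group has 3 libraries, numbered 1, 2 and 4, and all animals carry the same alleles. Tie2-Cre is active in endothelium and some blood cells, ai9 is a fluorescent Cre reporter, and rpl22HA is a ribosomal protein tagged for the isolation of ribosomes with their messenger RNAs. The series title speaks of a translatome, but neither the way cells or ribosomes were isolated nor the PTZ dose and timing is stated in the sources used here. No label states that a group's libraries are separate animals, so p-values reflect the spread among libraries alone, and that spread may be technical.

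VEGF ligands are secreted dimers that bind receptor tyrosine kinases on endothelial cells. VEGF-A signals mainly through Kdr (VEGFR2), whereas Flt1 (VEGFR1) binds VEGF-A, VEGF-B and placental growth factor tightly, signals weakly and is also made as a soluble decoy that holds ligand back. Flt4 (VEGFR3) is the receptor of VEGF-C and is best known from lymphatic vessels, and the neuropilins are co-receptors shared with the semaphorins. In the adult brain astrocytes and neurons are known sources of VEGF-A, and excess VEGF-A opens the blood-brain barrier.

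Gene reads summed to 11691668 to 15406967 in PTZ libraries and 11107481 to 14932860 in PBS libraries, and the 9 genes took 31563 to 53651 of them per library, most of them from Flt1. Levels are CPM (reads per gene, brought to one shared library size) after TMM scaling. Endothelial genes were well read, with no whole-tissue library to compare with. Pecam1, an adhesion molecule of endothelial junctions, stood at 642 ± 76.6 CPM in the PTZ group and 553 ± 69.6 CPM in the PBS group. The barrier claudin Cldn5 stood at 910 ± 547 CPM in the PTZ group and 813 ± 386 CPM in the PBS group (SD, n = 3 each). Rpl22, the tagged gene, stood at 77.9 ± 33.0 CPM in the PTZ group and 76.0 ± 16.5 CPM in the PBS group. The libraries were not purely endothelial. The summed level of 7 blood cell markers was 5187 to 10630 CPM in PTZ and 6107 to 9773 CPM in PBS. The summed level of 9 microglial markers was 1688 to 2531 CPM in PTZ and 2541 to 3108 CPM in PBS, with no overlap, and that of 10 pericyte and smooth muscle markers was 342 to 1078 CPM in PTZ and 200 to 563 CPM in PBS. In bulk samples such as these, fewer cells of a type and less RNA per cell cannot be told apart.

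Flt1 had the highest level per length of the 9 genes and was the one gene of the set whose libraries separated by group. It was read at 3011, 3125 and 2554 CPM in PTZ libraries 1, 2 and 4, against 1859, 2492 and 1789 CPM in PBS libraries 1, 2 and 4. Every PTZ library exceeded every PBS library, and the gap between the lowest PTZ and the highest PBS library was small. The mean was 2896 ± 302 CPM in the PTZ group and 2047 ± 387 CPM in the PBS group (SD, n = 3 each), a log2 fold change of 0.50 (SE 0.29, 95% interval -0.15 to 1.15). With edgeR's quasi-likelihood test the adjusted p was 0.737 over all genes tested, so the difference did not pass. An exact 2-sided permutation test of the 6 levels gave p = 0.1, the smallest that 3 libraries against 3 allow. Any gene with full separation gives this value, so the test adds nothing to the separation, and it did not use the replicate numbers. Of the 8 members with enough reads to be tested, Flt1 was the 1 with PTZ entirely above PBS, and 0 had PTZ entirely below. Among the 13768 genes tested 7.3% were separated upward, 7.04% downward and 14.3% in either direction.

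**Figure D1:**
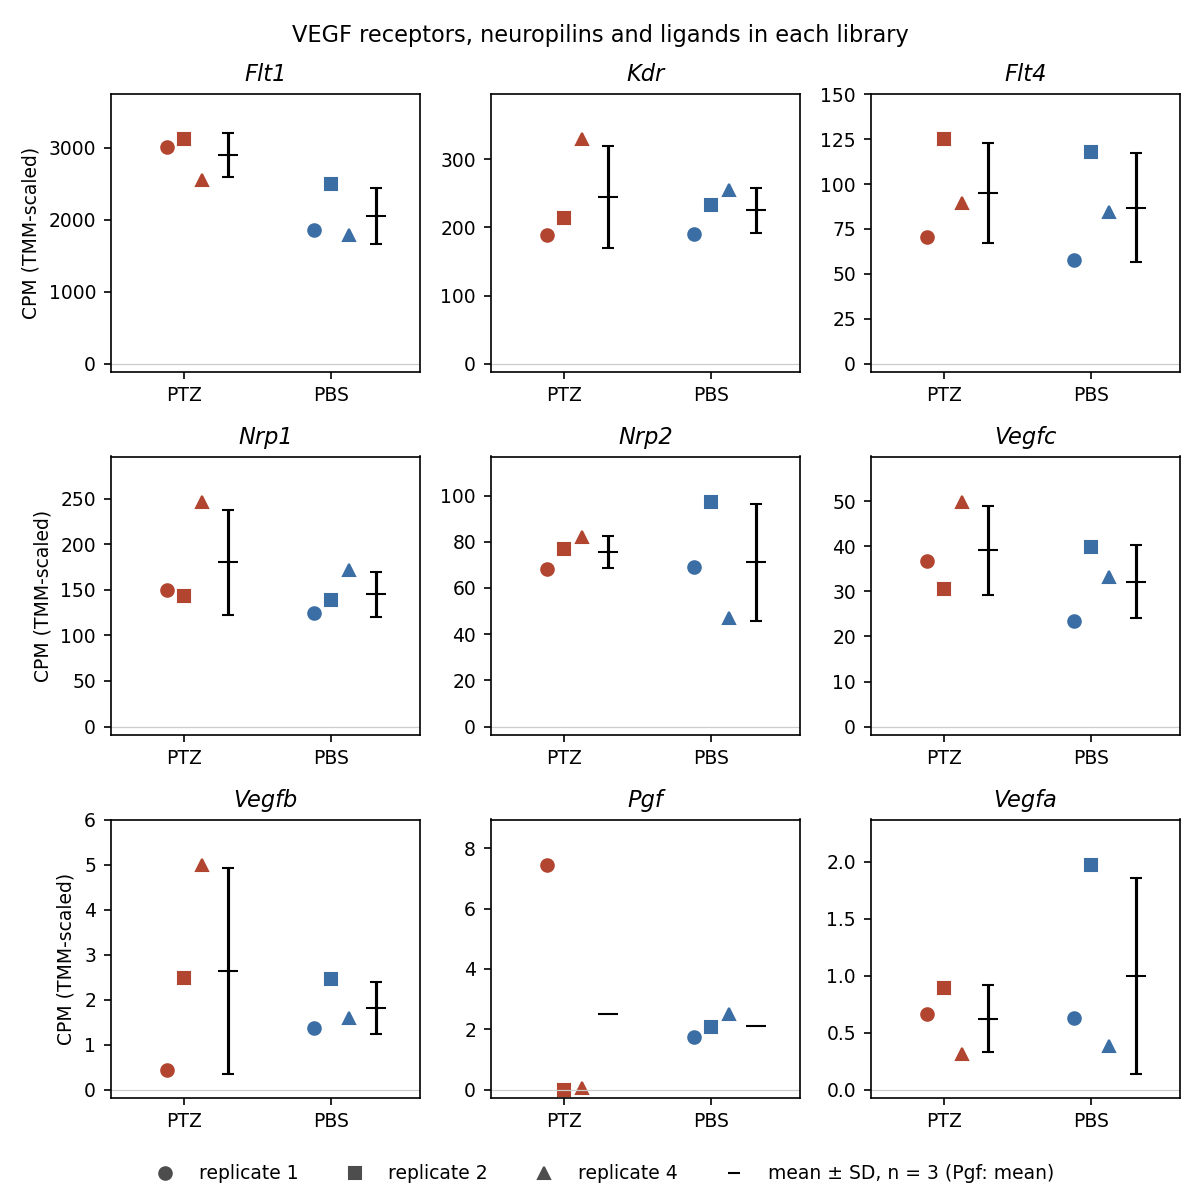
CPM (vertical axis, TMM-scaled) of the 9 VEGF genes in each of the 6 libraries, PTZ left and PBS right, with the marker shape giving the replicate number and the black bar the mean ± SD (the mean alone for Pgf). Flt1 is the panel in which the PTZ points, 2554 to 3125 CPM, all lie above the PBS points, 1789 to 2492 CPM.

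Kdr, the receptor through which most VEGF-A signalling runs, showed no such separation. It stood at 189, 215 and 331 CPM in PTZ libraries 1, 2 and 4, and at 190, 232 and 254.5 CPM in PBS libraries 1, 2 and 4. PTZ library 4 was the highest of the 6 and PTZ library 1 the lowest, so all PBS libraries lay between the extremes of PTZ. Relative to PBS the log2 fold change was 0.12 (SE 0.26, 95% interval -0.46 to 0.70, edgeR adjusted p = 0.949), and it turned to -0.16 without PTZ replicate 4. The interval leaves room for a level in PTZ between 0.727 and 1.62 times that in PBS.

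Flt4, the VEGF-C receptor, stood at 70.6, 125 and 89.4 CPM in PTZ libraries 1, 2 and 4, against 57.8, 118 and 84.7 CPM in PBS libraries 1, 2 and 4. Library 2 was the highest and library 1 the lowest in each group, and the ranges overlapped. Its log2 fold change was 0.13 (SE 0.30, edgeR adjusted p = 0.950), and it turned to -0.16 without PTZ replicate 2 and to -0.09 without PBS replicate 1. Markers of lymphatic endothelium, where Flt4 is best known, were low apart from Lyve1, which border macrophages also express: Prox1, the defining transcription factor, stood at 0.268 CPM in the PTZ group and 0.53 CPM in the PBS group. The summed level of the 6 lymphatic markers was 61.0 to 75.8 CPM in PTZ and 50.3 to 58.6 CPM in PBS, with every PTZ library above every PBS library. Most of that sum was Lyve1, at 53.8 to 65.7 CPM in PTZ and 45.9 to 54.8 CPM in PBS, with overlap. Of the 4 lymphatic markers tested 3 had a log2 fold change above 0, and Mmrn1 was at -0.54. The part of these markers in the Flt4 reads was not tested. Flt4 (ENSMUSG00000020357) lies on chromosome 11 at 49609263 to 49652739, plus strand.

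Within the receptor family the balance lay far on the side of Flt1. Per kilobase of exon, the scale on which the genes are ordered here, Flt1 stood at 214.5 ± 22.4 CPM per kb in PTZ and 152 ± 28.7 in PBS, Kdr at 27.1 ± 8.36 in PTZ and 24.97 ± 3.65 in PBS, and Flt4 at 11.6 ± 3.38 in PTZ and 10.55 ± 3.67 in PBS. Flt1 made up 88.3%, 85.6% and 79.9% of the receptor total per kb in PTZ libraries 1, 2 and 4, and 83.1%, 82.2% and 77.5% in PBS libraries 1, 2 and 4. Kdr made up 8.29% to 15.5% of it in PTZ and 11.45% to 16.5% in PBS. By level per kb Flt1 ranked 332 in PTZ and 511 in PBS among 13757 genes with a length, while Kdr ranked 1964 in PTZ and 2130 in PBS. The counts are per gene. GENCODE M21 lists 6 Flt1 transcripts, 2 of them protein coding, and reads of the full-length receptor and of the soluble decoy cannot be separated.

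**Figure D2:**
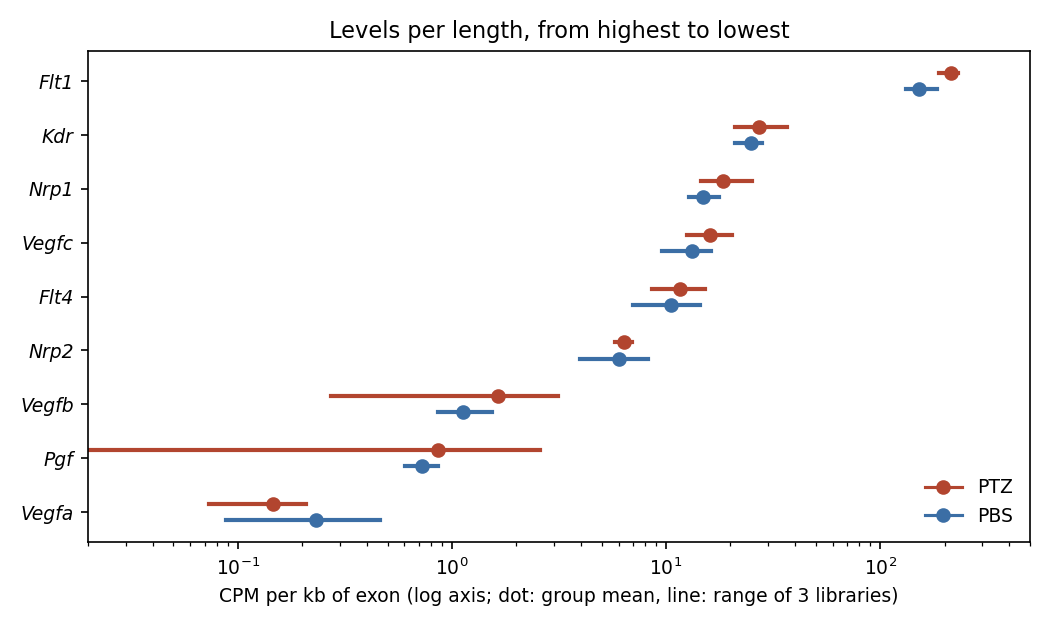
Level per kilobase of exon (horizontal log axis, CPM per kb) of the 9 genes ordered from high to low, with PTZ above PBS, dots for group means and lines for the range over 3 libraries; the PTZ line of Pgf runs off the left edge because 1 library had 0 reads. Flt1 at 214.5 in PTZ and 152 in PBS stands clear of Kdr and the rest, and Vegfa at 0.145 in PTZ and 0.232 in PBS is last.

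The ratio of Flt1 to Kdr within a library does not depend on how libraries are scaled. As a ratio of reads, with no correction for length, it was 15.9, 14.6 and 7.72 in PTZ libraries 1, 2 and 4, against 9.80, 10.7 and 7.03 in PBS libraries 1, 2 and 4. The ratio was higher in PTZ within each pair of equal number, and over all libraries the groups overlapped because PTZ library 4 had a low ratio. On the log2 scale the mean was 3.60 ± 0.57 in PTZ and 3.18 ± 0.32 in PBS (SD, n = 3 each), a difference of 0.43. Within pairs the difference was 0.70, 0.44 and 0.14 for numbers 1, 2 and 4, with an SD of 0.28 among pairs, and an exact 2-sided sign-flip permutation test over the pairs gave p = 0.25, the smallest that 3 pairs allow.

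**Figure D3:**
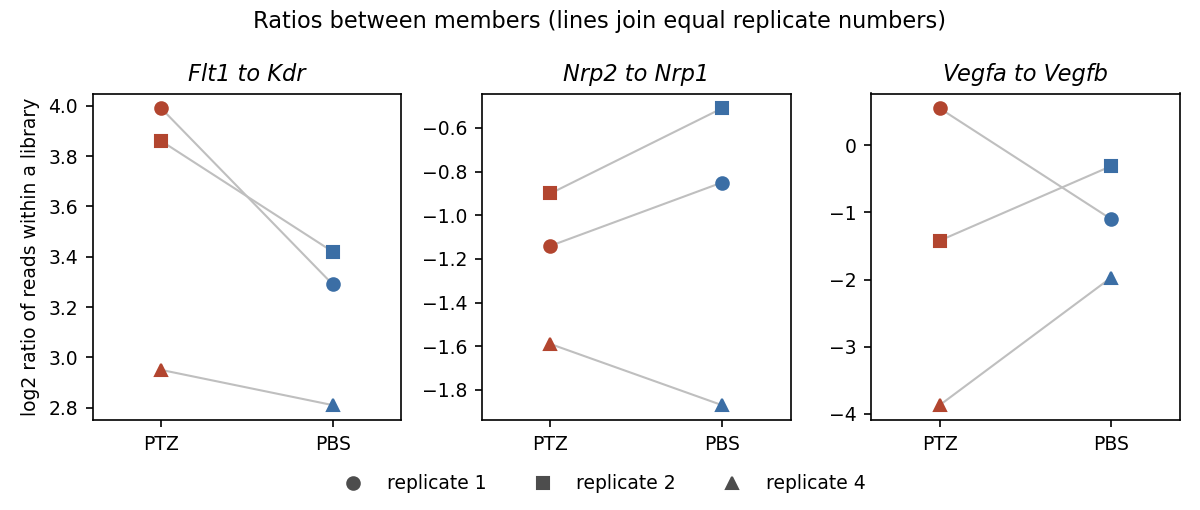
Log2 ratio of the reads of 2 genes within a library (vertical axis) for Flt1 to Kdr, Nrp2 to Nrp1 and Vegfa to Vegfb, PTZ left and PBS right, with grey lines joining libraries of equal replicate number. The Flt1 to Kdr lines stand at 3.99, 3.86 and 2.95 in PTZ and at 3.29, 3.42 and 2.81 in PBS, and the other ratios have lines in both directions.

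Both receptor genes lie on mouse chromosome 5 on the minus strand, Kdr (ENSMUSG00000062960) at 75932827 to 75978458 and Flt1 (ENSMUSG00000029648) at 147561604 to 147726011 (GRCm38). Their promoter windows, 250 bases before to 50 after the start in RefSeq (GRCm38.p6), are shown because the 2 genes are the most abundant receptors. Neither gene passed the adjusted threshold, and the part of the promoters in their levels was not tested. The Flt1 window is chr5:147725962-147726261 and the Kdr window chr5:75978406-75978705, both minus strand, and capitals mark each match on either strand to TGACGTCA (the cAMP response element), TATAAA (the box bound by TBP), GGGCGG (a GC box bound by Sp1) and ACGTG (the core bound by hypoxia-inducible factors).
Flt1: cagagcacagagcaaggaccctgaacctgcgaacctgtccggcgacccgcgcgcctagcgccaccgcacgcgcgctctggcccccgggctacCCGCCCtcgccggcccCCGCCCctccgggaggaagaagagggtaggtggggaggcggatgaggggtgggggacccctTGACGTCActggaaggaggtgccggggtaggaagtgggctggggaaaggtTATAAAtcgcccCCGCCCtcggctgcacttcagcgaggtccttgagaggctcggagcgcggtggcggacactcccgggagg
Kdr: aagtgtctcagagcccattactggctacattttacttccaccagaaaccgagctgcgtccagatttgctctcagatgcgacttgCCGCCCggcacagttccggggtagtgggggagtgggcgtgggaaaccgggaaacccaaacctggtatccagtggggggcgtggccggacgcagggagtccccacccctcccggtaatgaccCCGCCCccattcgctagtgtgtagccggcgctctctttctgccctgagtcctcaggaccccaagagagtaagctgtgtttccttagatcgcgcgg
The Flt1 window held 1 TGACGTCA, at position 170 counted from 1 at the 5′ end, 1 TATAAA at position 220 and 3 GC boxes. The Kdr window held 2 GC boxes and no TGACGTCA, TATAAA or ACGTG, and the ACGTG core was in neither window. The short ETS core GGAA, left in lower case, matched 4 times in Flt1 and 5 times in Kdr, and 96.0% of all windows hold it. TGACGTCA occurred in 1.79% of 32851 promoter windows of this length, TATAAA in 13.6%, ACGTG in 19.6% and GGGCGG in 35.7%. No motif overlapped another in these windows. Among the 11 windows of the 9 genes TGACGTCA and TATAAA were found in that of Flt1 alone, and ACGTG in 1 of the 2 Vegfa windows. A match describes the letters of the window and shows no binding.

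Nrp1, the neuropilin that partners Kdr and binds VEGF-A and semaphorin 3A, stood at 150, 143 and 247 CPM in PTZ libraries 1, 2 and 4, against 125, 138.5 and 172 CPM in PBS libraries 1, 2 and 4. As for Kdr, PTZ library 4 was the highest of all 6. Each PTZ library lay above the PBS library of the same number, but across numbers the groups overlapped. The log2 fold change was 0.31 (SE 0.26, 95% interval -0.27 to 0.89, edgeR adjusted p = 0.816) and it shrank to 0.01 without PTZ replicate 4. The gene (ENSMUSG00000025810) lies on chromosome 8 at 128358604 to 128503363, plus strand.

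Nrp2, which partners Flt4 and binds VEGF-C, stood at 68.4, 76.8 and 82.0 CPM in PTZ libraries 1, 2 and 4, against 69.1, 97.4 and 46.9 CPM in PBS libraries 1, 2 and 4. All PTZ libraries fell inside the range of the PBS libraries. Its log2 fold change was 0.09 (SE 0.27, edgeR adjusted p = 0.964), and -0.16 without PBS replicate 4. Nrp2 (ENSMUSG00000025969, chromosome 1, 62703285 to 62818695, plus strand) overlaps an antisense gene, Gm29083, with 5 reads over all libraries, and Gm37121 on its own strand with 29. The log2 ratio of Nrp2 to Nrp1 was -1.21 ± 0.35 in PTZ and -1.08 ± 0.71 in PBS (SD, n = 3 each), with overlapping libraries.

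Vegfc was the one ligand with a substantial level. It encodes the ligand of Flt4 and stood at 36.7, 30.6 and 49.9 CPM in PTZ libraries 1, 2 and 4, against 23.5, 39.8 and 33.2 CPM in PBS libraries 1, 2 and 4. It was higher in PTZ in pairs 1 and 4 and lower in pair 2, and the groups overlapped. Its log2 fold change was 0.28 (SE 0.29, 95% interval -0.36 to 0.92, edgeR adjusted p = 0.858). Per kb Vegfc reached 16.0 ± 4.04 CPM in the PTZ group and 13.2 ± 3.34 CPM in the PBS group, in the range of Nrp1 and Flt4 and above the other ligands in all libraries. Vegfc (ENSMUSG00000031520) lies on chromosome 8 at 54077606 to 54187096, plus strand.

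Vegfb, a ligand of Flt1 linked to fatty acid uptake, was scarce, with 6, 25 and 80 reads in PTZ libraries 1, 2 and 4 and 22, 25 and 21 reads in PBS libraries 1, 2 and 4. PTZ held both the lowest and the highest library, 0.439 and 5.01 CPM, and the PBS libraries lay between 1.37 and 2.47 CPM. Its log2 fold change of 0.55 (SE 0.93, edgeR adjusted p = 0.924) rested on PTZ library 4 and was -0.32 without it. Vegfb (ENSMUSG00000024962) lies on chromosome 19 at 6982473 to 6987651, minus strand.

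Pgf, which encodes placental growth factor, a ligand that binds Flt1 and not Kdr, had the most uneven reads. There were 102, 0 and 1 reads in PTZ libraries 1, 2 and 4 and 28, 21 and 33 reads in PBS libraries 1, 2 and 4. The level was 7.47 CPM in PTZ library 1 and 0.0626 CPM in PTZ library 4, while PTZ library 2 had no read, which allows up to 3 reads or 0.298 CPM by counting error alone. The PBS libraries lay together at 1.75, 2.07 and 2.49 CPM, so the PTZ libraries were on both sides of all PBS libraries. The log2 fold change of 0.26 (SE 1.47, edgeR adjusted p = 0.984) therefore stands for no library, and it was -5.53 without PTZ replicate 1 (edgeR unadjusted p = 0.00495, adjusted p = 0.787). PTZ library 1 also had the highest share of all reads assigned to no feature, 9.34% where the rest had 2.99% to 5.19%. Summed pericyte and smooth muscle markers were 1078, 342 and 1015 CPM in PTZ libraries 1, 2 and 4. They were 200, 293 and 563 CPM in PBS libraries 1, 2 and 4, so PTZ library 4, with 1 Pgf read, was close to PTZ library 1. The part of that share and of these markers in the Pgf reads was not tested. Pgf (ENSMUSG00000004791) lies on chromosome 12 at 85166635 to 85177790, minus strand.

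Vegfa was close to absent and did not pass the filter on low counts, so it was left out of the fit across all genes. It had 9, 9 and 5 reads in PTZ libraries 1, 2 and 4 and 10, 20 and 5 reads in PBS libraries 1, 2 and 4, or 0.313 to 0.893 CPM in PTZ and 0.378 to 1.97 CPM in PBS. The groups overlapped, and a difference was not detectable at this depth. Without the filter its log2 fold change was -0.72 (SE 1.30, edgeR adjusted p = 0.917). Vegfa passed the filter with some libraries left out, and the value was then -0.71 without PTZ replicate 1, -1.05 without PTZ replicate 2 and 0.26 without PBS replicate 2. The astrocyte channel gene Aqp4 stood at 0.146 to 0.596 CPM in PTZ and 0.0756 to 1.09 CPM in PBS, while the summed level of the 8 astrocyte markers was 66.2 to 189 CPM in PTZ and 48.0 to 144 CPM in PBS. Vegfa (ENSMUSG00000023951) lies on chromosome 17 at 46016993 to 46032369, minus strand.

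Ordered by mean level per kb, both groups ran Flt1, Kdr, Nrp1, Vegfc, Flt4, Nrp2, Vegfb, Pgf and Vegfa. In PTZ the steps that exceeded the spread of the libraries were those from Flt1 to Kdr, Flt4 to Nrp2 and Nrp2 to Vegfb, and in PBS those from Flt1 to Kdr, Kdr to Nrp1, Nrp2 to Vegfb and Pgf to Vegfa. The other neighbours had overlapping ranges. The summed level of the 3 receptors was 3271, 3465 and 2974 CPM in PTZ libraries 1, 2 and 4 and 2107, 2843 and 2129 CPM in PBS libraries 1, 2 and 4, and Flt1 makes up most of it. The sum of the 4 ligands was 45.3, 33.95 and 55.3 CPM in the PTZ group and 27.3, 46.3 and 37.7 CPM in the PBS group, with overlap.

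In the fit across all 13768 genes 0 of the 8 tested members reached an adjusted p under 0.05 in either direction, and the background was the same, with 0 genes higher (0%) and 0 lower (0%). When p was left unadjusted, at the same threshold, edgeR had 0 of the 8 members against 7.21% of all genes, and limma-voom 0 against 8.2%. DESeq2 gave no p for Pgf and had 1 of the other tested members, Flt1 (log2 fold change 0.49, adjusted p = 0.586), against 7.96% of all genes. With the replicate number as a block edgeR also had 1, Flt1 (log2 fold change 0.51, unadjusted p = 0.0281, adjusted p = 0.408), against 10.9% of all genes, and with library totals alone it had Flt1 (unadjusted p = 0.0313, adjusted p = 0.843) against 5.77%. DESeq2 called 53 genes higher (0.385%) and 23 lower (0.167%) at the adjusted threshold, limma-voom 1 higher (0.00726%), and 0 members were among them. All 8 tested members had a log2 fold change above 0 (median 0.27), as did 52.7% of all genes (median 0.03), and these signs held under the 3 other scalings. The signs of Kdr, Flt4, Nrp2, Vegfb and Pgf turned when single libraries were left out, as given with each gene, and that of Pgf also in limma-voom and with the replicate block. Flt1, Flt4 and Nrp1 were higher in PTZ within all 3 pairs of equal replicate number, and 0 of the 8 tested members were lower in all 3. Of all genes tested 18.5% were higher and 16.6% lower in all 3 pairs.

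**Figure D4:**
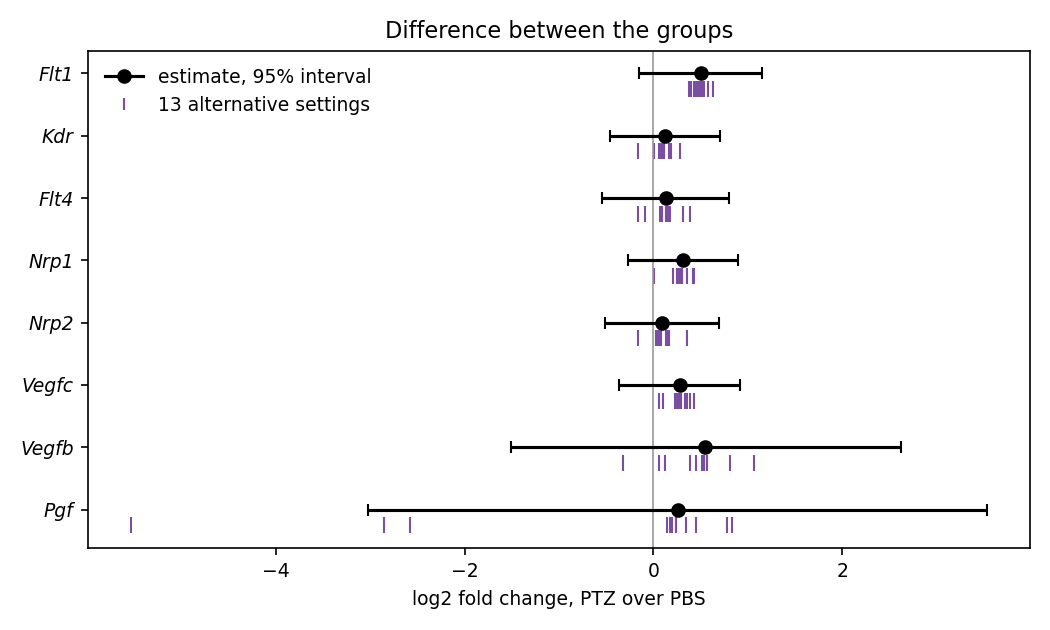
Log2 fold change of PTZ over PBS (horizontal axis) of the 8 tested members, with black dots and bars for the edgeR estimate and its 95% interval, and purple ticks for the same value under 13 alternative settings. All intervals include 0, that of Flt1 (-0.15 to 1.15) least widely on its lower side, and the ticks of Flt1 stay between 0.38 and 0.63.

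Genes with the pattern most like that of a receptor over the 6 libraries were named by the root mean square difference of centred log2 CPM, among 9630 protein-coding genes with a mean of at least 5 CPM. For Flt1 they were Pex6 (0.0493), Bnip2 (0.0535) and Kmt2b (0.0659), where Flt1 itself varied by 0.310 about its mean. For Kdr they were Mtap (0.0600), Abhd16a (0.0723) and Calcoco1 (0.0924), where Kdr varied by 0.277. With so many genes and 6 libraries such likeness is a description only.

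Around the members, 5 lists of genes of the pathway were followed. Genes known to be induced by VEGF in endothelial cells had the highest median, 0.55 over 15 of 19 members tested, beside 0.03 for all genes. The list was chosen with earlier results of these data known, so its values are no independent test. Its log2 fold change was above 0 in 11 genes, where 52.7% of all genes were above 0. It was below 0 in 4: Dusp5 (-0.78), Egr1 (-0.57, SE 0.91), Hlx (-0.50) and Ets1 (-0.17). Egr1 stood at 45.0, 39.8 and 44.4 CPM in PTZ libraries 1, 2 and 4. In PBS libraries 1, 2 and 4 Egr1 stood at 10.8, 174 and 7.56 CPM, so PBS library 2 alone lay above the PTZ libraries. In this list 5 members had an unadjusted p under 0.05 with a higher level and 0 with a lower one, where 3.83% and 3.38% of all genes did, and 0 passed in edgeR over all genes. The nuclear receptor gene Nr4a3 stood at 19.7, 9.93 and 24.3 CPM in PTZ libraries 1, 2 and 4 and at 4.43, 2.37 and 3.17 CPM in the PBS libraries (log2 fold change 2.43, SE 0.48). Dusp1, a phosphatase of MAP kinases, stood at 194, 147 and 225 CPM in the PTZ group and at 42.5, 99.6 and 63.4 CPM in the PBS group (1.46, SE 0.31). Rcan1, a calcineurin inhibitor switched on by VEGF through NFAT, stood at 105, 109.5 and 139 CPM in the PTZ group and at 59.6, 75.1 and 71.6 CPM in the PBS group (0.78, SE 0.21). These 3 are the genes of the list with the smallest p, and the edgeR adjusted p was 0.407, 0.426 and 0.5345 in that order. Over the list 4 of the 15 genes had all libraries of PTZ above those of PBS and 0 had them below, where 7.3% and 7.04% of all genes did. The list median was 0.29 without PBS replicate 1, 0.29 without PBS replicate 4 and 1.07 without PBS replicate 2. These genes answer many stimuli besides VEGF. DESeq2 called Nr4a3 and Dusp1, where it called 0.385% of all genes higher and 0.167% lower. Without PBS replicate 2 edgeR called Nr4a1 and Nr4a2, among 8 genes higher and 0 lower of 14755 tested. Leaving out the low-count filter gave Nr4a1, Nr4a2, Nr4a3 and Dusp1, among 77 genes higher and 44 lower of 34777 tested. Nr4a1 and Nr4a2 are named after their values were seen. Nr4a1 stood at 228, 262 and 233 CPM in the PTZ group and at 19.0, 245.5 and 27.9 CPM in the PBS group, so that PBS library 2 resembled the PTZ libraries.

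Class 3 semaphorins and their plexin receptors, which share the neuropilins with VEGF, had a median of 0.49 over 11 of 13 members tested, with 1 member higher and 0 lower by unadjusted p and 0 called. By unadjusted p 3.83% of all genes were higher and 3.38% lower. Plxna4, a co-receptor of Nrp1 for semaphorin 3A, stood at 29.1, 26.6 and 31.6 CPM in PTZ libraries 1, 2 and 4 and at 13.9, 11.8 and 16.0 CPM in the PBS libraries (log2 fold change 1.06, SE 0.28, edgeR adjusted p = 0.522), without overlap. Plxna2 stood at 292 ± 65.4 CPM in the PTZ group and 208 ± 19.9 CPM in the PBS group (0.49, SE 0.23), and the arterial semaphorin Sema3g at 273 ± 46.4 CPM in the PTZ group and 179 ± 73.3 CPM in the PBS group (0.61, SE 0.29), both with overlapping libraries (SD, n = 3 each). Of the 11 genes 1 was separated by group, where 14.3% of all genes were. The list median was 0.11 without PBS replicate 4, 0.24 without PBS replicate 1 and 0.32 without PTZ replicate 4, and 0.28 with the replicate block.

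Receptor partners and trafficking genes had a median of 0.28 over 20 of 23 tested, with 0 members past an unadjusted p of 0.05 in either direction and 0 called. That unadjusted threshold was passed by 7.21% of all genes. Cdh5, the VE-cadherin of endothelial junctions that associates with Kdr, stood at 152, 182.5 and 228 CPM in the PTZ group and at 115.5, 145 and 144 CPM in the PBS group, without overlap (0.48, SE 0.23, edgeR adjusted p = 0.700). The integrin subunit gene Itgav had a log2 fold change of 0.78 (SE 0.41). Vegfd, a further ligand of Flt4, stood at 12.2, 4.17 and 1.19 CPM in the PTZ group and at 2.44, 1.38 and 2.19 CPM in the PBS group, with PTZ on both sides of PBS (1.53, SE 0.85). Of the 20 genes 1 was separated by group, where 14.3% of all genes were. Without PBS replicate 4 the list median was 0.17.

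Genes of signal transduction downstream of the receptors had a median of 0.15 over 36 of 38 tested, with 2 members higher and 1 lower by unadjusted p and 0 called. By unadjusted p 3.83% of all genes were higher and 3.38% lower. The adaptor gene Shb, which binds Kdr, stood at 22.6, 28.3 and 21.5 CPM in PTZ libraries 1, 2 and 4 and at 9.18, 14.7 and 6.73 CPM in the PBS libraries (log2 fold change 1.24, SE 0.37, edgeR adjusted p = 0.601). Gab1, a docking protein, stood at 61.2 ± 8.31 CPM in the PTZ group and 42.8 ± 5.18 CPM in the PBS group (0.52, SE 0.22). Nck1, an adaptor towards the cytoskeleton, was the member below that threshold with a negative value, at 88.2 ± 13.8 CPM in the PTZ group and 125.5 ± 5.97 CPM in the PBS group (-0.51, SE 0.20, SD with n = 3 each). Of the 36 genes 3 had PTZ entirely above PBS and 1 entirely below, where 14.3% of all genes were separated. The list median was 0.09 without PTZ replicate 2 and 0.10 without PBS replicate 2.

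Genes of the oxygen sensing that controls Vegfa and Flt1 were listed with genes of the hypoxia response such as Ldha and Bnip3. This list had a median of 0.15 over 15 of 16 tested, with 1 member higher and 0 lower by unadjusted p and 0 called. By unadjusted p 3.83% of all genes were higher and 3.38% lower. The log2 fold change was above 0 in 10 genes of the list, where 52.7% of all genes were above 0. It was below 0 in 5: Bnip3 (-0.36), Ldha (-0.30), Pgk1 (-0.14), Hif3a (-0.13) and Adm (-0.09). The prolyl hydroxylase gene Egln2 stood at 159, 257 and 146 CPM in the PTZ group and at 121.5, 146 and 90.5 CPM in the PBS group (0.65, SE 0.28, edgeR adjusted p = 0.691), with PTZ library 4 just under PBS library 2. Cited2, a hypoxia-induced inhibitor of hypoxia-inducible factors, stood at 8.64, 9.43 and 13.7 CPM in the PTZ group and at 8.24, 4.74 and 7.18 CPM in the PBS group (0.65, SE 0.45), without overlap. Hif1a itself had a log2 fold change of 0.30 (SE 0.25). Of the 15 genes 1 was separated by group, where 14.3% of all genes were. The list median was -0.03 without PTZ replicate 2, 0.06 without PBS replicate 2 and 0.09 without PBS replicate 1.

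**Figure D5:**
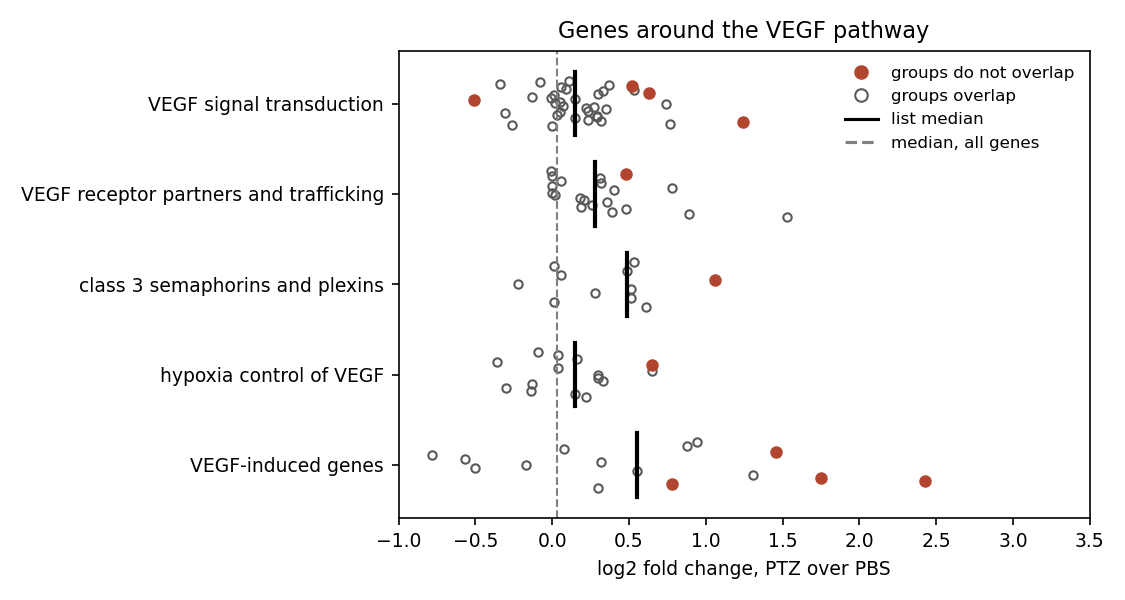
Log2 fold change of PTZ over PBS (horizontal axis) of the tested genes of 5 pathway lists, with filled red circles for genes whose groups do not overlap, open circles for the rest, black bars for list medians and a dashed line for the median of all genes, 0.03. The VEGF-induced list has the highest median, 0.55, and the widest spread.

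Where other cell types moved with these values, their markers were as follows. Of 9 tested pericyte and smooth muscle markers 9 had a log2 fold change above 0 (median 1.18), and so had 7 of 7 fibroblast markers (median 1.35), whose summed level was 88.0 to 288 CPM in PTZ and 92.9 to 150 CPM in PBS. Of the 10 endothelial markers 6 were above 0 (median 0.15), and their sum was 7169 to 15090 CPM in PTZ and 8882 to 13000 CPM in PBS. The 7 arterial markers summed to 1696 to 3407 CPM in PTZ and 1441 to 2229 CPM in PBS. The 6 venous markers summed to 2848 to 9005 CPM in PTZ and 3109 to 8969 CPM in PBS. The 7 blood cell markers summed to 5187 to 10630 CPM in PTZ and 6107 to 9773 CPM in PBS. Library 2 had the highest endothelial, arterial, venous, blood cell and neuronal sums in each group, and it was also the highest for Flt1 and Flt4. Their part in the levels of the VEGF genes was not tested.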

How the data were processed

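RNA was measured in 3 PTZ and 3 PBS libraries. Per the labels' protocols, Trizol was used for extraction and a NEBNext low-input kit for the libraries. Without giving roles, the submitters' processing notes list TopHat2 2.1.1, CASAVA, HTSeq, edgeR and the build GRCm38. For the annotation and the strand setting, nothing is stated in the sources used here. The authors deposited raw counts per Ensembl gene, with 5 summary rows (16.1% to 22.9% of reads) left out here, and a scaled signal per library, the count divided by 1 factor, used as an alternative scaling.

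Counts were analysed with edgeR 4.0.16, DESeq2 1.42.0 and limma 3.58.1 in R 4.3.3. The filterByExpr step (minimum count 10, minimum total 15) left 13768 of 34777 genes with a read. TMM factors were 0.864 to 1.14. The test was edgeR's quasi-likelihood test on group, 2-sided, Benjamini-Hochberg adjusted over all genes, threshold 0.05, and was tested on simulated data. Every simulated gene had the same dispersion, whereas the biological coefficient of variation of the members ran from 0.246 for Flt1 to 1.203 for Pgf. The SE was derived from the fold change and its statistic. The biological coefficient of variation was 0.47. Intervals of log2 fold changes rest on the edgeR fit and include the spread among libraries. Floors from reads cover counting error only. Lengths are the union of exons in GENCODE M21. Within a group every pair of libraries differed beyond sampling noise (chi-square per degree of freedom 48.5 to 115). Deviations from group means correlated at 0.191, 0.238 and 0.246 between libraries of equal number, so the numbers, from the titles, were taken as pairs by a rule of over 0.1 in every pair, and a block was tried. The SE and interval printed for each gene come from the fit without the block. With the block the SE was smaller for Flt1 (0.20 against 0.29), Kdr (0.18 against 0.26), Flt4 (0.18 against 0.30) and Nrp1 (0.18 against 0.26). It was larger for Vegfb (1.04 against 0.93) and Pgf (1.99 against 1.47).

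The members and lists were chosen with earlier results of these data known. By rule the text names all members, Pecam1, Cldn5, Rpl22, the 3 members of each pathway list with the smallest p where 0 passed, and the 3 genes most like Flt1 and Kdr. Genes below 0 are named besides in the VEGF-induced list and in the oxygen sensing and hypoxia list. Other scalings, tests and filters and single left-out libraries were tried.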

Additional observations from a re-analysis of the deposited data

How the results depend on the processing

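Over 13 alternatives the log2 fold change of Flt1 stayed between 0.38 and 0.63 (adjusted p 0.408 to 0.9998), that of Nrp1 between 0.01 and 0.43 and that of Vegfc between 0.06 and 0.43, and 0 members were called under any of them. With single libraries left out Kdr ranged from -0.16 to 0.28, Vegfb from -0.32 to 1.06, Flt4 from -0.16 to 0.39, Nrp2 from -0.16 to 0.35 and Pgf from -5.53 to 0.83, and Pgf was -2.58 in limma-voom. With the replicate number as a block Pgf was -2.85, edgeR called 0 genes in either direction, and the block changed no call of a member or list. Over all genes, 77 were called higher and 44 lower of 34777 without the low-count filter. Of 13768 genes DESeq2 called 53 higher and 23 lower, and limma-voom 1 and 0. With single libraries left out 0 to 8 were called higher, the 8 without PBS replicate 2, of 14755 tested. VEGF-induced genes called numbered 4 without the filter, 2 by DESeq2 and 0 to 2 with single libraries left out. The signal transduction median was 0.08 with the authors' factors and 0.10 without the filter, and 0.09 to 0.20 with single libraries left out. The median of the oxygen sensing and hypoxia list was 0.05 without the filter and -0.03 to 0.17 with single libraries left out, and the semaphorin median 0.11 to 0.52. The median of receptor partners was 0.17 to 0.30 and that of VEGF-induced genes 0.29 to 1.07 with single libraries left out, and the VEGF-induced median was 0.98 in limma-voom and 0.87 with the block. The log2 difference of Flt1 to Kdr was 0.23 to 0.75 with single libraries left out, that of Nrp2 to Nrp1 -0.53 to 0.16 and that of Vegfa to Vegfb -1.52 to 0.69. Where the causes of these shifts are not given by fewer genes or libraries, the cause was not tested. Reads were fewest for Vegfa, with 5 to 20 a library, while the biological coefficient of variation between libraries was 1.203 for Pgf and 0.773 for Vegfb.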
